A study of Homo sapiens with 8 samples.

Results

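The genes described here are 44 genes of DNA replication and mitosis, chosen by symbol from a table of 39533 genes: 20 genes of the G1/S transition (MCM2 to FEN1) and 24 genes of the G2 phase and mitosis (MKI67 to KIF20A). All 44 have a row in the table, had counts in every library and were tested. They were measured in cells of HCT116, an established line of human colorectal cancer, taken from a tumour self-seeding model. Self-seeding is the return of tumour cells from the blood to the tumour they left. The groups, as the series title spells them out, were circulating tumour cells (CTC, 2 libraries) from blood and, both from the primary tumour, self-seeded cells (TSC, 3 libraries) and primary cells (PC, 3 libraries). Liver cancer stands in the title of the series although the line is colorectal. The sources used here do not give the host animal, how the 3 populations were separated or any reporter the cells carried. Nothing in the labels says that replicates came from separate animals or cultures, and the p-values rest on a spread among libraries that may be technical only.

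A dividing cell copies its DNA in S phase and parts the copies in mitosis. Before S phase the loading factors CDC6 and CDT1 place the MCM2 to MCM7 helicase ring on replication origins, and CDC45 and the GINS complex then turn it into the active helicase. Genes of this step are switched on by E2F factors once the block by the retinoblastoma protein is lifted. Cyclin E and its kinase take part in lifting it. Genes of mitosis peak later in the cycle, and their promoters are known for CCAAT boxes, bound by NF-Y, and for the cell cycle genes homology region (CHR), bound by the DREAM and MuvB complexes with MYBL2 or FOXM1. In colorectal tumours both groups of genes serve as marks of proliferation. Their RNA in a bulk sample averages over cells of all phases, and fewer cells in a phase and less RNA per cell cannot be told apart.

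The promoter letters, which played no part in choosing the genes, differed between the G1/S and the G2/M genes. RefSeq promoters (GRCh38.p14, 250 bases before to 50 bases after the start) were found for 17 of 20 G1/S genes and 19 of 24 G2/M genes. MCM4, MCM5, CCNE2, AURKA, TTK, TPX2, BIRC5 and UBE2C were not in the table of promoters. The letters of an E2F site (TTTCCCGC, TTTGGCGC, TTTCGCGC or TTTGCCGC, on either strand) were present in 12 of 17 G1/S promoters (70.6%) and in 2 of 19 G2/M promoters (10.5%), against 3.33% of all 27305 promoters. The letters of a CHR (TTTGAA or TTTAAA, on either strand) were present in 3 of 17 G1/S promoters (17.6%) and 16 of 19 G2/M promoters (84.2%), against 24.3% of all. CCAAT on either strand was present in 70.6% and 89.5%, against 35.7% of all, and CHR and CCAAT letters stood together in 14 of 19 G2/M promoters (73.7%), 2 of 17 G1/S promoters (11.8%) and 9.49% of all. A match is a description of these letters and not a measured binding site.

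**Figure D1:**
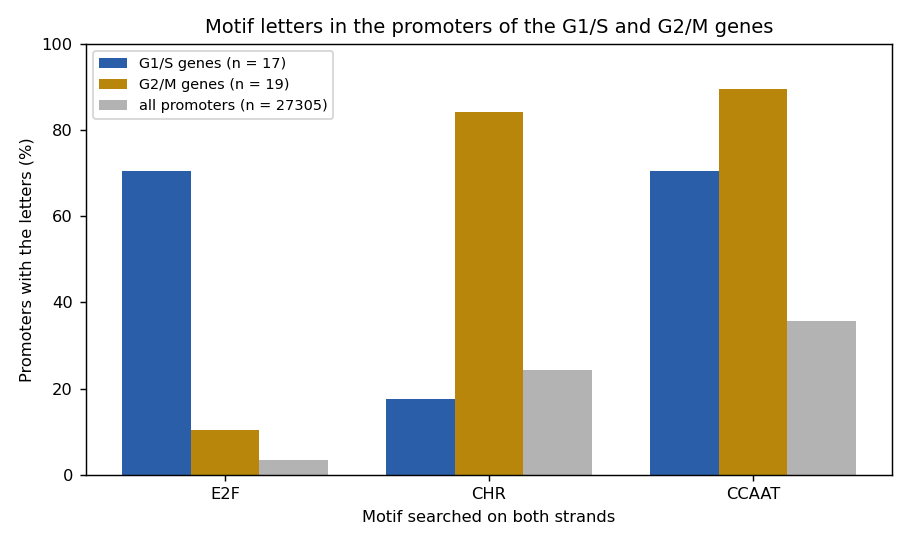
Share of promoters (vertical axis, percent) with E2F, CHR or CCAAT letters on either strand (horizontal axis) in G1/S genes (blue), G2/M genes (gold) and all RefSeq promoters (grey). E2F letters stood in 70.6% of the G1/S and 10.5% of the G2/M promoters, and CHR letters in 17.6% and 84.2%.

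Promoter sequences are shown for MCM6, which held 4 E2F matches, for RRM2, a G1/S gene with a CHR match and no E2F match, for the G2/M genes with the strongest CTC values that are in the promoter table (ASPM, CCNB2 and KIF23), and for MKI67, which departed from most other G2/M genes. Each runs 5′ to 3′ on the gene's strand over the 250 bases before the start, with matches of any of the 3 motifs in capitals (ATTGG is CCAAT on the other strand, TTCAAA is TTTGAA on the other strand, and overlapping matches run together, so that TTTGGCGCGAAA is an E2F match on each strand).
MCM6: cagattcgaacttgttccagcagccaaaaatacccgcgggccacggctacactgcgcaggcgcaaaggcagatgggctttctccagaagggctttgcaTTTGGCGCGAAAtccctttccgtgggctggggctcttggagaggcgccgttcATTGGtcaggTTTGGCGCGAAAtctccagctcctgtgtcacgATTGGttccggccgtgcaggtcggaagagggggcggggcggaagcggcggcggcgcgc
RRM2: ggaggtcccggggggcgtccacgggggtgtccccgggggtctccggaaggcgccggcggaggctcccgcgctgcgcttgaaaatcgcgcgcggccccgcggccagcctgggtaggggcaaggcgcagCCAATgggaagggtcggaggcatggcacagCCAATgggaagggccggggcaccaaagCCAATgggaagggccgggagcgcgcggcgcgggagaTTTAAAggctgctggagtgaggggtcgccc
ASPM: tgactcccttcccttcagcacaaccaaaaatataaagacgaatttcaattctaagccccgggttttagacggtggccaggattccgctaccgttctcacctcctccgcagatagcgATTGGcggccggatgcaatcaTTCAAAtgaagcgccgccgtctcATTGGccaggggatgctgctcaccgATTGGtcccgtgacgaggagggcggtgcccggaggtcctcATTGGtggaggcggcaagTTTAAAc
CCNB2: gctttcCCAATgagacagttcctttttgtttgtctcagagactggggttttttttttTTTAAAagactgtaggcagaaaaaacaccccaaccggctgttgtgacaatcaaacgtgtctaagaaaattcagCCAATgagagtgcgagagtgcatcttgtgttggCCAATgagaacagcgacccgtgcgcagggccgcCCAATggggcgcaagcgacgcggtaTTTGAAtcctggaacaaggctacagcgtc
KIF23: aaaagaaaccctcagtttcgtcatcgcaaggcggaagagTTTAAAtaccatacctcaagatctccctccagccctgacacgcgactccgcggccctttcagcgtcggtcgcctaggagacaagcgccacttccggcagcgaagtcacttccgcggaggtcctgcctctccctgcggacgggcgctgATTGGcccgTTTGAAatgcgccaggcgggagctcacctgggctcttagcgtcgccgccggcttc
MKI67: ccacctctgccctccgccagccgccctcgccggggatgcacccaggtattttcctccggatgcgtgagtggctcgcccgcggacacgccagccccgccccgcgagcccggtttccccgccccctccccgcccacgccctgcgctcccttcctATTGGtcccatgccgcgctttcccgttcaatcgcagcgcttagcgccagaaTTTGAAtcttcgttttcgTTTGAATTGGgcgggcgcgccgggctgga
The MCM6 promoter lies at chr2:135876444-135876693 (minus strand), RRM2 at chr2:10122489-10122738 (plus), ASPM at chr1:197146670-197146919 (minus), CCNB2 at chr15:59104896-59105145 (plus), KIF23 at chr15:69414099-69414348 (plus) and MKI67 at chr10:128126424-128126673 (minus). ASPM held 4 CCAAT and 2 CHR matches, the nearer of which began 7 bases before the start. CCNB2 held 4 CCAAT and 2 CHR matches, and KIF23 held 1 and 2. MKI67 held 2 CCAAT matches and 2 TTTGAA matches, which began 47 and 29 bases before the start, and the second of these shares a base with a CCAAT match on the other strand. FEN1, described below, held none of the 3 motifs in its promoter window.

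Total counts were 957607 in CTC replicate 1 and between 4578869 and 19264595 in the other 7 libraries. Counts of single members ran from 14 (E2F1) to 416 (TOP2A) in CTC replicate 1 and from 62 to 17242 in the others, so that counting error is widest in that library. The epithelial genes EPCAM, KRT8, KRT18 and KRT19 were high in every library, and the 8 epithelial markers summed to 5147 CPM or more. KRT20 was listed at 0 throughout, VIL1 was at 0 to 0.997 CPM and CDX2 at 13.0 to 33.9 CPM. CDH1 was at 111 and 82.3 CPM in CTC, below PC at 135, 138 and 213 CPM. Leukocyte markers were higher in CTC: 14 leukocyte markers summed to 174 to 462 CPM in CTC, 2.96 to 4.52 CPM in PC and 3.03 to 6.33 CPM in TSC, with counts in CTC for 10 of 14 (CD3E, NKG7, S100A8 and S100A9 were at 0). In PC 9 of the 14 and in TSC 7 had a count. The 10 erythroid and platelet markers summed to 247 to 332 CPM in CTC and 52.3 to 64.5 CPM in PC. Their TSC sums were 81.9 to 94.0 CPM. In CTC 5 of 10 had a count (HBA1, HBA2, PPBP and PF4 were among those at 0). HBD alone made up most of the PC and TSC sums, with 50.3 to 61.7 CPM in PC and 80.3 to 92.95 CPM in TSC. Its CTC values, 52.9 and 78.5 CPM, overlapped PC. HBB, ALAS2 and SLC4A1 each stayed at 0.754 CPM or less in every PC and TSC library. The 10 stromal markers summed to 11.5 to 19.0 CPM in CTC, 30.5 to 70.5 CPM in PC and 12.03 to 112 CPM in TSC, and 6 hepatocyte markers to 1.68 CPM or less. The 7 leukocyte markers that were tested all rose in CTC against PC. Of the 5 tested erythroid and platelet markers 3 rose (HBB, ALAS2 and SLC4A1), while HBD and the platelet gene ITGA2B did not. The part of these cells in the differences below was not tested.

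Levels differed widely between members. Scaled to the longest coding transcript, PCNA, the sliding clamp of DNA polymerases, stood highest among the 44 in PC at 172 CPM per kilobase. The 6 MCM subunits, which form 1 ring, lay between 56.7 (MCM6) and 127 (MCM7) CPM per kilobase in PC. E2F1, the transcription factor, was at 6.99 and the cyclin gene CCNE2 at 7.11 CPM per kilobase. Among G2/M genes the spindle assembly factor TPX2 led with 95.4, while the long kinetochore motor gene CENPE was lowest at 5.63 CPM per kilobase.

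The G1/S and G2/M genes differed in how far each library stood from PC. Relative to the PC mean on the log2 CPM scale, the 20 G1/S genes averaged 0.51, −0.09 and 0.44 in TSC replicates 1 to 3 and −0.12 and 0.07 in CTC replicates 1 and 2. The 24 G2/M genes averaged 0.27, −0.24 and 0.11 in TSC and 0.35 and 0.45 in CTC. PC replicates lay between −0.14 and 0.08 for G1/S and between −0.17 and 0.14 for G2/M genes. Both CTC libraries thus stood above the 3 PC libraries for G2/M genes and within their range for G1/S genes. TSC replicate 1 stood above them for both sets and TSC replicate 3 for G1/S genes, while TSC replicate 2 lay close to PC replicate 3.

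**Figure D2:**
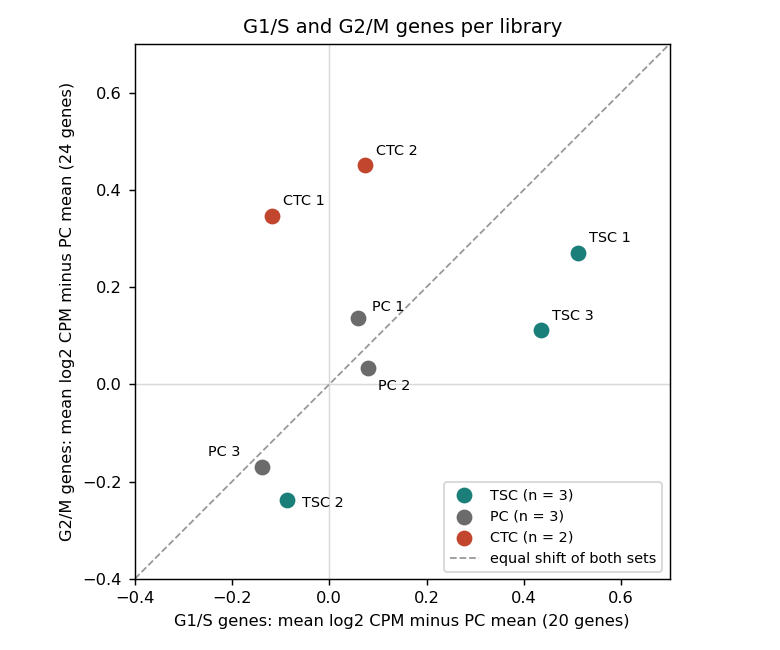
Mean log2 CPM minus the PC mean over the 20 G1/S genes (horizontal axis) and the 24 G2/M genes (vertical axis), 1 point per library. The CTC libraries lie above the dashed line of equal shift, at −0.12 and 0.35 and at 0.07 and 0.45, and the TSC libraries lie below it.

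The difference of the 2 means in each library removes a shift common to both sets. It was 0.24, 0.15 and 0.32 in TSC, −0.08, 0.05 and 0.03 in PC and −0.46 and −0.38 in CTC, and the 3 groups did not overlap. The log2 ratio of summed CPM, G1/S over G2/M, gave 0.25, −0.28 and 0.27 in TSC, −0.29, −0.16 and −0.23 in PC and −0.45 and −0.35 in CTC, where TSC replicate 2 lay within the PC range. This ratio is weighted by abundant genes, and MKI67 alone held 1130 of the 3821 CPM of G2/M genes in TSC replicate 2. Without MKI67 the ratio was 0.32, 0.23 and 0.46 in TSC, 0.06, 0.16 and 0.16 in PC and −0.33 and −0.26 in CTC, and the groups did not overlap in this alternative, which was added after seeing the data. Without MKI67, TOP2A and CENPF the ratio was 0.55, 0.63 and 0.69 in TSC and 0.42, 0.53 and 0.58 in PC, which overlapped, and −0.02 and 0.03 in CTC, below both. Over members shorter than the median transcript, TSC (−0.18, −0.12 and −0.09) and PC (−0.32, −0.18 and −0.15) overlapped as well, and CTC (−0.63 and −0.66) lay below both. No test was made of these scores, since the genes were chosen with earlier results of these data known.

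**Figure D3:**
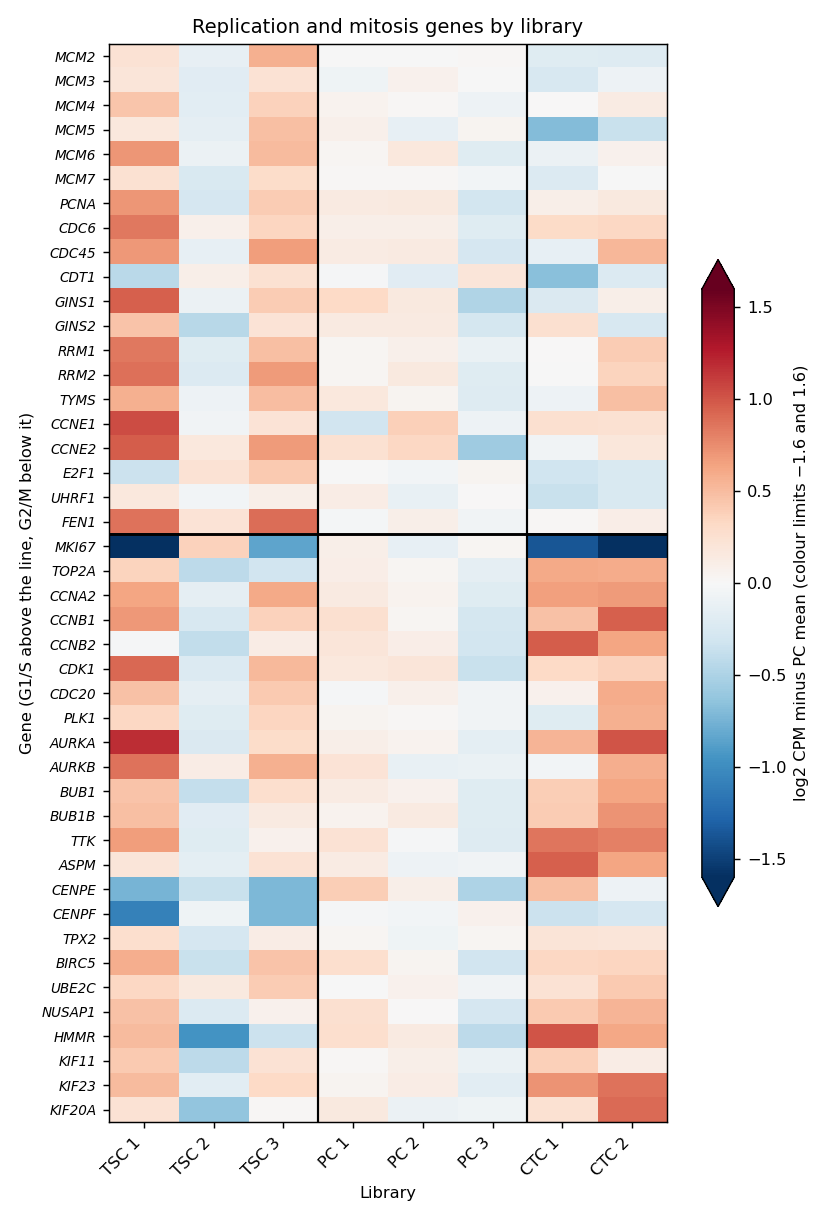
Colour shows log2 CPM minus the PC mean for each of the 44 genes (rows, G1/S above the line) in each library (columns). MKI67 is lower than the PC mean in TSC replicates 1 and 3 and in both CTC libraries, where most other G2/M genes are higher.

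CTC against PC sets cells from the blood beside cells of the tumour. Of the 24 G2/M genes, 1 rose in CTC and 0 fell, and 22 had a positive fold change with a median log2 fold change of 0.50, against 47.4% positive and a median of −0.04 over all 14255 tested genes. ASPM, which organises spindle poles, was the gene that rose, where 3.92% of all tested genes were called, 1.4% higher and 2.52% lower. At an unadjusted p under 0.05, 13 of the 24 G2/M genes were higher, against 9.67% of all tested genes, and 1 was lower (MKI67), against 13.9%. Both CTC libraries lay above all 3 PC libraries for 18 of the 24, against 19.9% of all tested genes. All 7 spindle genes and motors were among these 18. Leukocyte marker sums were also higher in both CTC libraries than in PC, as given above, and so was the erythroid and platelet sum. In the latter HBB, ALAS2 and SLC4A1 were higher, while PPBP and PF4 were at 0 and ITGA2B and HBD overlapped PC.

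ASPM stood at 167 and 133 CPM in CTC, against 94.5, 81.2 and 83.1 CPM in PC, and the groups did not overlap. It was 1.72-fold higher in CTC (a log2 difference of 0.79 ± 0.20 SE between 2 and 3 libraries, with a Benjamini-Hochberg adjusted p = 0.0400 in the quasi-likelihood test of edgeR). TSC held ASPM at 98.3, 77.6 and 101 CPM, overlapping PC. The call was lost without TSC replicate 3 (adjusted p = 0.0653), without PC replicates 1, 2 or 3 (0.0912, 0.124 and 0.131) and without CTC replicates 1 or 2 (0.119 and 0.164). DESeq2 called ASPM together with CCNB2, TTK and KIF23 (4 members, where it called 7.89% of all genes), and limma-voom called 9 G2/M genes higher and MKI67 lower (11.6% of all genes).

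Several other G2/M genes showed a like difference and did not pass. KIF23, the kinesin of the central spindle that is needed for cytokinesis, was at 154 and 169 CPM in CTC, against 96.3, 101 and 82.7 CPM in PC (log2 fold change 0.79 ± 0.21, adjusted p = 0.0506). CCNB2, a cyclin partner of CDK1, was at 145 and 114 CPM in CTC, against 84.3, 79.6 and 60.1 CPM in PC (0.78 ± 0.22, adjusted p = 0.0626). In both genes the lowest CTC library was above the highest PC library. TTK, the spindle checkpoint kinase, was at 88.8 and 85.7 CPM in CTC, against 57.6, 48.4 and 42.4 CPM in PC (0.82 ± 0.25, adjusted p = 0.0737). Its CTC libraries were nearly level with each other and apart from PC. KIF20A, another kinesin of cytokinesis, was uneven in CTC, at 126 and 199 CPM, against 118, 99.99 and 101.5 CPM in PC (0.63 ± 0.25, adjusted p = 0.150).

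By role, the 6 genes of mitotic cyclins, CDK1 and the anaphase-promoting complex had a median log2 fold change of 0.52 in CTC, the 6 mitotic kinases of 0.55 and the 7 spindle genes and motors of 0.63, and all of these genes were positive. CCNA2, the cyclin of S phase and early mitosis, was at 163 and 166 CPM in CTC, against 114, 108 and 90.1 CPM in PC, with TSC at 160.4, 93.7 and 157 CPM (1.59-fold for CTC against PC, adjusted p = 0.105). TOP2A, which untangles replicated DNA, was at 415 and 412 CPM in CTC against 295, 281 and 247 CPM in PC (log2 0.59 ± 0.22, adjusted p = 0.122). AURKA had the largest positive fold change (0.82, adjusted p = 0.135), and PLK1 the smallest of the kinases, at 0.26, with CTC replicate 1 at 135 and replicate 2 at 228 CPM on either side of PC. The 5 genes of chromosomes and kinetochores were split, with a median of 0.14, and MKI67 and CENPF were its negative members.

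MKI67 encodes the Ki-67 protein that coats mitotic chromosomes and is the usual stain for cycling cells. It was at 338 and 283 CPM in CTC, against 933, 798 and 895 CPM in PC, while TSC held 186, 1130 and 488 CPM. CTC lay wholly below PC (log2 fold change −1.50 ± 0.48, a 2.83-fold difference, adjusted p = 0.0853), opposite in sign to 22 of the 24 G2/M genes, and TSC spanned the whole range (−0.54 ± 0.40, adjusted p = 0.694). MKI67 was lowest in TSC replicate 1, where 30 of the 44 genes had their highest TSC value. It was highest in TSC replicate 2, where 39 of the 44 had their lowest. The matching shares of all tested genes were not computed. CENPF, a kinetochore and nuclear matrix protein gene, followed the same order as MKI67, at 221, 444 and 282 CPM in TSC. It was at 461, 451 and 487 CPM in PC and 366 and 386 CPM in CTC. All TSC and CTC libraries were below all PC libraries for CENPF, as for 9.9% (TSC) and 24.7% (CTC) of all tested genes, and neither difference passed (−0.56 ± 0.21, adjusted p = 0.382 in TSC and −0.31 ± 0.24, adjusted p = 0.453 in CTC). The other gene that TSC replicate 2 held highest was CENPE, at 28.1, 36.6 and 28.7 CPM in TSC and 61.9, 50.1 and 33.5 CPM in PC (−0.63 ± 0.24, adjusted p = 0.392).

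**Figure D4:**
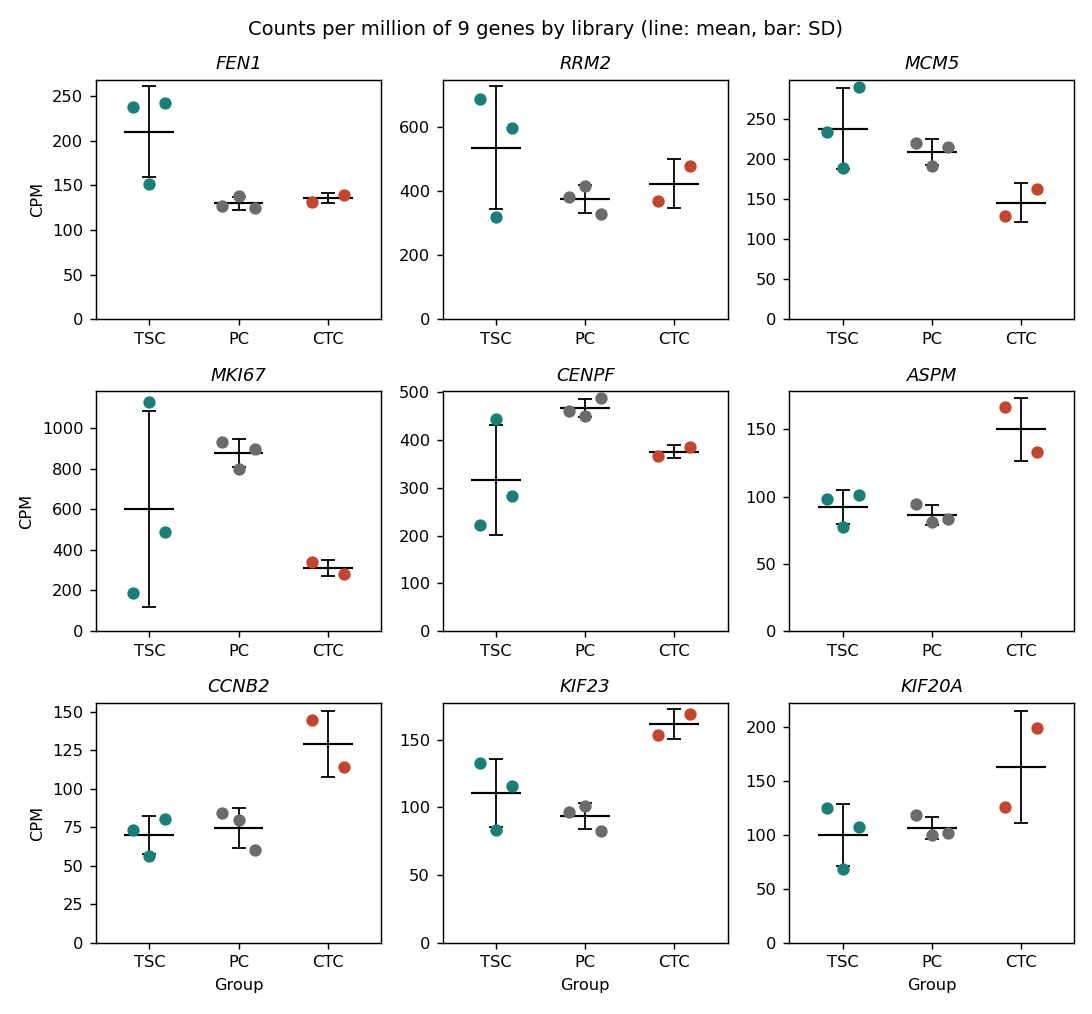
CPM (vertical axes, from 0) of 9 genes by group, 1 point per library, with the group mean as a line and the SD as a bar (n = 3, 3 and 2). ASPM, CCNB2 and KIF23 lie higher in CTC, FEN1 lies higher in TSC, and MKI67 spreads from 186 to 1130 CPM in TSC.

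These 3 genes have some of the longest transcripts of the list (12678 bases for MKI67, 10307 for CENPF and 8612 for CENPE). ASPM, whose values are given above, has 10887 bases. Split at the median transcript length, the shorter members stood higher against PC than the longer ones in CTC and TSC replicates 1 and 3. In TSC replicate 2 they stood lower. The longer members were 11 G1/S and 11 G2/M genes, and the shorter ones held more G2/M than G1/S genes. The 22 members shorter than the median of 3204.5 bases had a median shift from PC of 0.58, −0.21 and 0.41 in TSC replicates 1 to 3, against 0.39, −0.16 and 0.24 for the 22 longer ones. In CTC the shorter members stood at 0.24 and 0.51 and the longer ones at −0.003 and 0.12. Among all 10919 tested genes with a known length and a count in every library, genes shorter than the same length lay at 0.14, 0.007 and 0.12 in TSC and longer ones at −0.08, 0.01 and −0.06, a tilt in the same direction for TSC replicates 1 and 3. In CTC these shorter genes lay at −0.02 and 0.10 and the longer ones at −0.04 and −0.05. Within the G2/M set the CTC shift was about as large in the 11 longer genes (0.40 and 0.59) as in the shorter ones (0.33 and 0.59). The part of length or RNA quality in the values of MKI67, CENPF and CENPE was not tested.

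For the G1/S genes in CTC, 10 of 20 were positive and 10 negative with a median of 0.02. edgeR called 0 of them, as did DESeq2 and limma-voom, where 3.92%, 7.89% and 11.6% of all tested genes were called. At an unadjusted p under 0.05, 1 of the 20 was lower, against 13.9% of all tested genes, and 0 were higher, against 9.67%. The lower gene was the helicase subunit gene MCM5, at 129 and 163 CPM in CTC, against 220.5, 191 and 216 CPM in PC (−0.51 ± 0.21, adjusted p = 0.165). Both CTC libraries lay below all PC libraries for 6 of 20 G1/S genes, among them MCM2, MCM3, MCM5 and the loading factor gene CDT1, against 24.7% of all tested genes. They lay above for 1 (CDC6, at 125 and 127 CPM against 88.4 to 107.5 CPM), against 19.9% of all. CDT1 was at 77.8 and 106 CPM in CTC (−0.40 ± 0.24, adjusted p = 0.316). UHRF1, which brings the maintenance methyltransferase to new DNA, was at 109 and 117 CPM in CTC, against 150.3, 128 and 139 CPM in PC (−0.30 ± 0.18, adjusted p = 0.343). In both genes the CTC libraries lay below PC, and neither difference passed. The 8 licensing genes had a median of −0.13, the 3 nucleotide supply genes (RRM1, RRM2 and TYMS) of 0.23.

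TSC and PC share the tumour and differ in whether the cells are labelled as having returned to it. No member passed the test. Of 20 G1/S genes, 19 had a positive fold change with a median of 0.33, and of the 24 G2/M genes 17 were positive with a median of 0.15, against 50.7% positive and a median of 0.006 over all tested genes. edgeR called 0 of the 44, where 0.505% of all genes were called, 0.224% higher and 0.281% lower. At an unadjusted p under 0.05, 5 were higher and 2 lower, against 5.05% and 5.25% of all genes, DESeq2 called 1 (FEN1; 1.34% of all genes) and limma-voom 3 (FEN1 higher, CENPE and CENPF lower; 3.88% of all genes).

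FEN1, the nuclease that trims Okazaki fragments, was the 1 of 20 G1/S genes whose TSC libraries all exceeded PC, against 8.96% of all tested genes. It was at 237.5, 151 and 242 CPM in TSC, 127, 138 and 125 CPM in PC and 132 and 139 CPM in CTC. The difference from PC was 1.62-fold (log2 0.69 ± 0.19, n = 3 and 3, adjusted p = 0.157). RRM2, the small subunit of ribonucleotide reductase that supplies deoxynucleotides, was at 690.5, 320 and 598 CPM in TSC, 384, 416 and 328 CPM in PC and 371 and 478 CPM in CTC. TSC replicate 2 was below every PC library, and the other TSC libraries were above every library of the other groups (0.51 ± 0.23, adjusted p = 0.468). CCNE2, the cyclin E2 gene, was at 44.8, 25.6 and 36.7 CPM in TSC and 27.1, 28.6 and 15.3 CPM in PC (0.59 ± 0.27, adjusted p = 0.468).

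CDC6 was at 180.0, 107 and 127.5 CPM in TSC (0.45 ± 0.20, adjusted p = 0.455), with TSC replicate 2 within the PC range. PCNA was at 379, 192.5 and 308 CPM in TSC, 256, 258 and 189 CPM in PC and 247 and 259 CPM in CTC (0.32 ± 0.22 for TSC against PC, adjusted p = 0.656). TSC replicate 2 was again the lowest TSC library. By role, the median log2 fold changes of G1/S genes in TSC were 0.21 for licensing, 0.44 each for the helicase partners CDC45, GINS1 and GINS2 and for nucleotide supply, 0.43 for cyclin E and E2F1 and 0.32 for PCNA, FEN1 and UHRF1. The exception to the sign was CDT1, at 91.1, 132 and 146 CPM in TSC and 122, 109 and 141 CPM in PC (−0.007 ± 0.20, adjusted p = 0.995).

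The TSC libraries were not alike. TSC replicate 1 was above all 3 PC libraries for 18 of 20 G1/S and 20 of 24 G2/M genes, and TSC replicate 3 for 18 and 14. TSC replicate 2 was above all PC libraries for 2 and 2, and below all of them for 8 and 13. Shares of all tested genes above or below PC in a single library were not computed. Without TSC replicate 2, edgeR called 4 members, RRM2 and FEN1 higher and MKI67 and CENPF lower (1.08% of all genes), and the medians were 0.53 for G1/S and 0.32 for G2/M genes. Without TSC replicate 1 they were 0.17 and −0.05, with 0 calls (0.459% of all genes).

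Among the G2/M genes, the cyclin, CDK1 and anaphase-promoting complex genes had a median of 0.30 in TSC and the kinases of 0.19. The largest value was that of AURKB. AURKB, the kinase of the chromosomal passenger complex, was at 92.0, 54.6 and 74.9 CPM in TSC and 58.8, 46.6 and 46.9 CPM in PC (0.53 ± 0.22, adjusted p = 0.430). UBE2C, the ubiquitin-conjugating enzyme of the anaphase-promoting complex, was at 103, 91.3 and 109 CPM in TSC and 81.8, 85.8 and 78.97 CPM in PC. It was the G2/M gene with every TSC library above every PC library (0.30, adjusted p = 0.558), where 8.96% of all tested genes were so ordered. The spindle genes and motors had a median of 0.10.

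**Figure D5:**
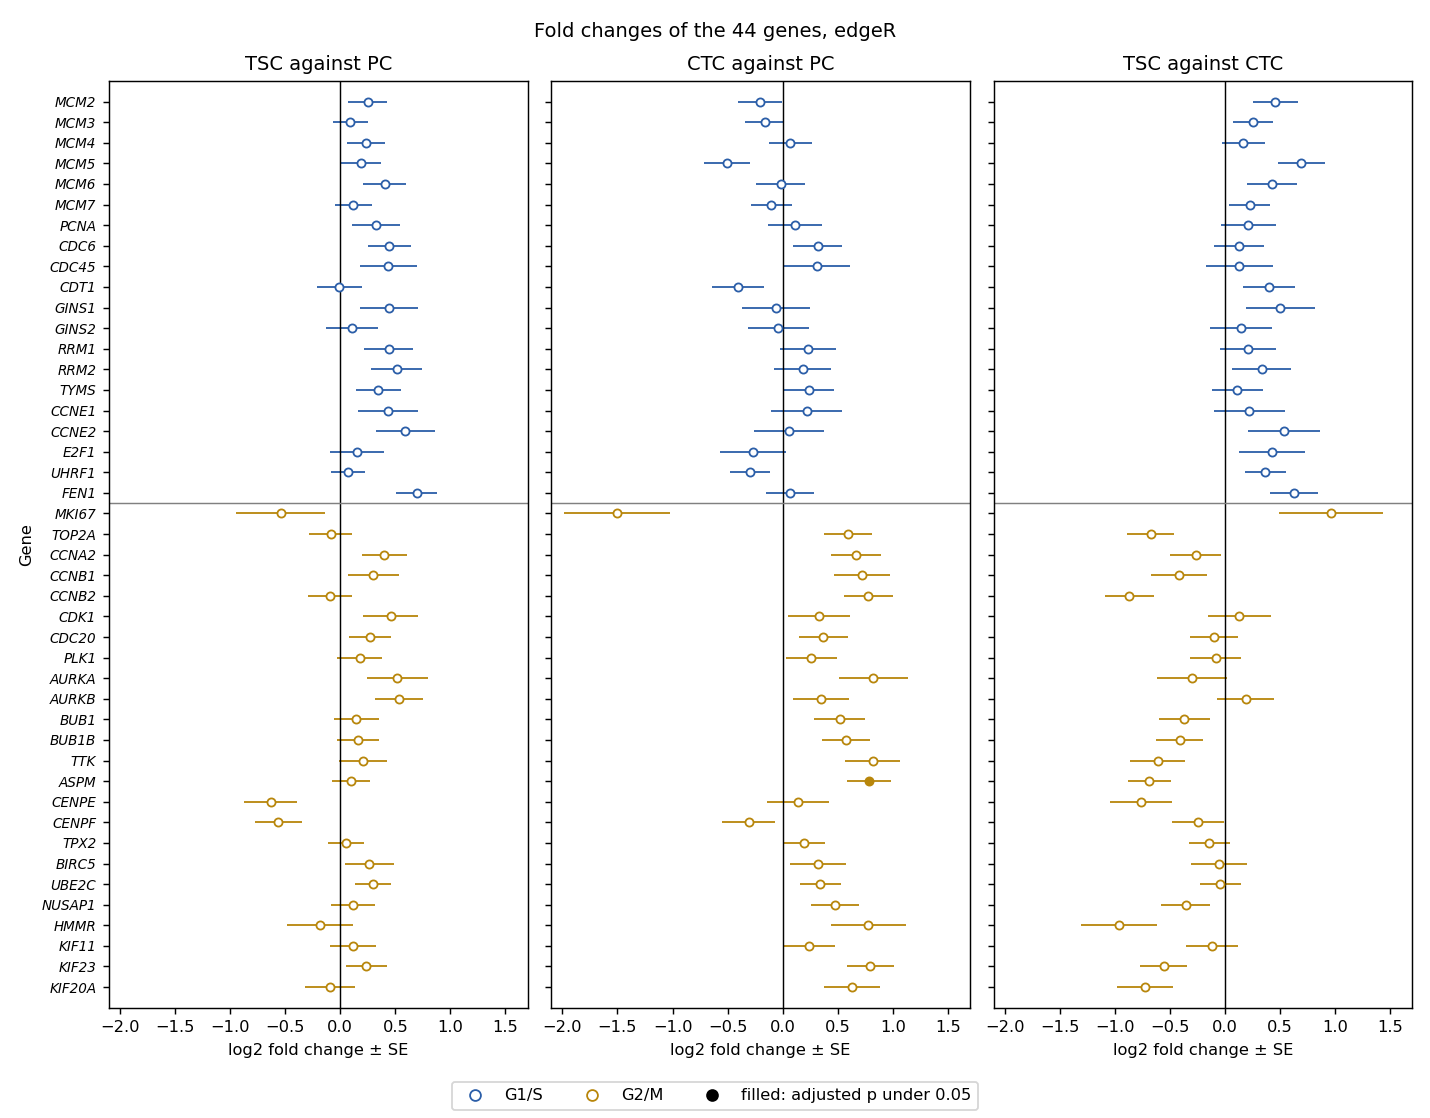
Log2 fold change ± SE of each of the 44 genes (rows) in the 3 comparisons, with G1/S genes in blue and G2/M genes in gold. One point, ASPM in CTC against PC, is filled for an adjusted p under 0.05. MKI67 lies opposite in sign to most G2/M genes in all 3 comparisons.

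The direct comparison of TSC with CTC shares its libraries with the other comparisons and asks how cells back in the tumour differ from those in the blood. All 20 G1/S genes had a positive fold change, with a median of 0.29, and 21 of 24 G2/M genes a negative one, with a median of −0.33, against 55.0% positive and a median of 0.06 over all tested genes. edgeR called 0 of the 44, where 0.898% of all genes were called, 0.372% higher and 0.526% lower. At an unadjusted p under 0.05, 3 were higher and 8 lower, against 10.3% and 6.36% of all genes. DESeq2 called CCNB2 and ASPM lower (2.74% of all genes) and limma-voom MCM5 higher and TOP2A and HMMR lower (3.09% of all genes).

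CCNB2, at 73.1, 56.4 and 80.5 CPM in TSC and 145 and 114 CPM in CTC, had the smallest p (−0.87 ± 0.22, adjusted p = 0.0869). ASPM differed by −0.69 ± 0.20 (adjusted p = 0.118). MCM5 had TSC at 234, 190 and 291 CPM, all above CTC (0.69 ± 0.21, adjusted p = 0.131), and TOP2A had TSC at 351, 205 and 222 CPM, all below CTC (−0.68 ± 0.22, adjusted p = 0.148). FEN1 was likewise higher in all TSC libraries (0.63 ± 0.22, adjusted p = 0.175). MCM2 was at 319, 248 and 404 CPM in TSC and 237 and 235 CPM in CTC (0.45 ± 0.20, adjusted p = 0.280), and the groups did not overlap. UHRF1 was at 156, 134 and 148 CPM in TSC, above both CTC libraries (0.37 ± 0.18, adjusted p = 0.333). For 4 of 20 G1/S genes (MCM2, MCM5, UHRF1 and FEN1) every TSC library was above both CTC libraries, against 15.4% of all tested genes, and for 9 of 24 G2/M genes every TSC library was below them, against 13.0%. MKI67 was the G2/M gene with the largest positive value (0.96 ± 0.47, adjusted p = 0.323).

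Further genes of the cell cycle, listed by function, gave the following counts. Of 62 other mitosis genes 58 were tested, and in CTC against PC 2 rose, 0 fell and 47 were positive, with a median of 0.35, against 1.4% higher, 2.52% lower and 47.4% positive of all tested genes. ECT2, the exchange factor that activates RhoA for cytokinesis, was at 275 and 409 CPM in CTC, against 158, 153 and 127 CPM in PC. It was 2.36-fold higher (log2 1.24 ± 0.24, adjusted p = 0.0132), and the call was lost without PC replicate 3 (adjusted p = 0.0562) or CTC replicate 2 (0.230). SGO2, a shugoshin that guards centromeric cohesion, was at 102 and 92.1 CPM in CTC, against 52.5, 52.9 and 47.5 CPM in PC (0.92 ± 0.24, adjusted p = 0.0443). Its call was lost without TSC replicate 3 (adjusted p = 0.0752), any 1 PC library (0.106 to 0.144) or either CTC library (0.0918 and 0.232). Both CTC libraries lay above all PC libraries for 32 of the 58, against 19.9% of all tested genes. DESeq2 called 4 and limma-voom 7 of the 58, against 7.89% and 11.6% of all.

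In TSC against PC edgeR called 0 of the 58 other mitosis genes (median 0.13, 6 higher and 2 lower at an unadjusted p under 0.05, DESeq2 0 and limma-voom 2), and in TSC against CTC also 0 (median −0.20, 1 higher and 14 lower at an unadjusted p under 0.05, DESeq2 1 and limma-voom 3). Of all tested genes, 5.05% were higher and 5.25% lower at an unadjusted p under 0.05 in TSC against PC. The shares were 9.67% and 13.9% in CTC against PC and 10.3% and 6.36% in TSC against CTC. Of all tested genes edgeR called 0.505%, 3.92% and 0.898% in TSC against PC, CTC against PC and TSC against CTC. DESeq2 called 1.34%, 7.89% and 2.74% and limma-voom 3.88%, 11.6% and 3.09%. The 46 other replication genes, all tested, had medians of 0.22 in TSC against PC, 0.09 in CTC against PC and 0.11 in TSC against CTC. edgeR called 0 of them in each, with 1, 3 and 3 higher and 0, 1 and 2 lower at an unadjusted p under 0.05, and DESeq2 called 0, 1 and 0 and limma-voom 0, 2 and 0. Of these, DBF4, the activator of the origin-firing kinase CDC7, was at 87.8 and 86.3 CPM in CTC, against 47.5, 51.3 and 46.8 CPM in PC (0.84 ± 0.24, adjusted p = 0.0616). DNMT1, the maintenance DNA methyltransferase, was at 219 and 252 CPM in CTC, against 323, 354 and 363 CPM in PC (−0.55 ± 0.19, adjusted p = 0.103). RPA1, a subunit of the single-strand binding complex, was at 270, 174 and 215 CPM in TSC and 161, 165 and 159 CPM in PC (0.44 ± 0.18, adjusted p = 0.414). POLA2, a subunit of the polymerase that starts new strands, was at 34.1, 19.0 and 29.6 CPM in TSC and 16.0 in both CTC libraries (0.77 ± 0.31, adjusted p = 0.231).

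Of 41 regulators of the cycle (cyclins D, kinases, E2F and DREAM components, CDK inhibitors and others) 38 were tested. edgeR called 0 in each comparison, with 5, 3 and 5 higher and 1, 4 and 2 lower at an unadjusted p under 0.05. DESeq2 called 1, 3 and 1 and limma-voom 3, 4 and 2 in TSC against PC, CTC against PC and TSC against CTC. At an unadjusted p under 0.05 the shares of all tested genes were 5.05%, 9.67% and 10.3% higher and 5.25%, 13.9% and 6.36% lower, and those called were 1.34%, 7.89% and 2.74% by DESeq2 and 3.88%, 11.6% and 3.09% by limma-voom. MYBL2, which activates mitotic genes with MuvB and is itself an E2F target, was at 233, 165 and 242 CPM in TSC, 145, 118 and 124 CPM in PC and 113 and 124 CPM in CTC. All TSC libraries were above those of both other groups (0.72 ± 0.18 against PC, adjusted p = 0.126, and 0.84 ± 0.21 against CTC, adjusted p = 0.0826). PKMYT1, a kinase that holds CDK1 inactive, was at 48.3, 54.3 and 61.1 CPM in TSC and 22.9 and 32.6 CPM in CTC (0.91 ± 0.25, adjusted p = 0.107). CDC25A, a phosphatase that activates CDKs, was at 65.3, 39.9 and 37.8 CPM in TSC and 28.6, 29.6 and 28.1 CPM in PC (0.72 ± 0.22, adjusted p = 0.257). CDKN1A, the CDK inhibitor p21, was at 79.8 and 42.8 CPM in CTC, below PC at 103, 115 and 108 CPM (−0.90 ± 0.26, adjusted p = 0.0664). FBXO5, the inhibitor of the anaphase-promoting complex, was at 77.8 and 90.2 CPM in CTC, above PC at 46.4, 47.3 and 39.7 CPM (0.93 ± 0.28, adjusted p = 0.0694).

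Counts of some members may include reads of a neighbour. Exon overlaps were taken from the basic transcript set of GENCODE release 29. There 4 members share exon bases with another gene on the same strand (BUB1B, FEN1, NUSAP1 and RRM2, by 172, 49, 1787 and 1077 bases). Another 11 do so only with a gene on the opposite strand, which counts without strand cannot part. The sources do not give the strand setting. KIF23 shares 231 bases with a gene on the opposite strand. ASPM, CCNB2, TTK, MKI67, CENPF and TOP2A share no exon bases with another gene in this basic set.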

How the data were processed

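The members, gene lists, motifs and tests were chosen with earlier results of these data known. Per the labels' protocols, RNA was depleted of ribosomal RNA before library preparation. The deposited table holds raw counts per gene, with no normalization by the authors. The submitters' processing notes name STAR 2.5.3a, featureCounts 1.5.3 and the build hg38. Which annotation and strand setting were used, and whether host reads were removed, is not stated in these sources.

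The counts went into edgeR 4.0.16 (R 4.3.3), with the filterByExpr filter, TMM scaling and the quasi-likelihood functions glmQLFit and glmQLFTest, in 1 fit over all 8 libraries, with Benjamini-Hochberg adjustment over all 14255 tested genes and calls at an adjusted p under 0.05. The SE is the size of the log2 fold change over the root of the F statistic. CPM are the deposited counts scaled by the tested genes' total times the TMM factor, with no pseudocount. Any member could be named. Full values went to those called, MKI67, PCNA and the 4 genes of each set with the smallest p per comparison, and from the other lists to those called or, with none, the 2 with the smallest p. Transcript length is that of the longest coding transcript in the basic set of GENCODE release 29. Alternatives were DESeq2 size factors, no filter, a stricter filter, DESeq2 1.42.0 and limma-voom (limma 3.58.1), which was run with a weight estimated per library. Others were only the groups compared, a replicate block and each library left out. The ratio without MKI67 alone was added after the data were seen. The scripts were tested on simulated data. The name of 1 marker gene is not reported here.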

Additional observations from a re-analysis of the deposited data

Results flagged for a closer look

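The balance between G1/S and G2/M genes (mean log2 CPM of the G1/S genes minus that of the G2/M genes, relative to PC) was positive in all 3 TSC libraries and negative in both CTC libraries. The TSC and CTC means differed by 0.66. By the log2 ratio of summed CPM, TSC replicate 2 was at −0.28, within the PC range, and the means differed by 0.48. These differences were not tested, since the genes were chosen with results known.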

How the results depend on the processing

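ASPM, ECT2 and SGO2 kept a positive fold change in CTC against PC under every alternative run. The G2/M median in TSC against PC (0.15) changed sign without TSC replicate 1 (−0.045). The G1/S median in CTC against PC (0.02) lay near 0 and ranged from −0.11 (without CTC replicate 2) to 0.08 with a library left out. It was also negative without TSC replicate 1 or PC replicate 3, with no filter, with the replicate block and with limma-voom. The number of members called moved with the test and the filter. In TSC against PC it was 0, and 1 with no filter (1.54% of all genes called), 1 with DESeq2 (1.34%) and 3 with limma-voom (3.88%). In CTC against PC it was 1, and 2 with DESeq2 size factors (4.06% of all genes called) and 8 with no filter (6.68%). It was 9 with only the 2 groups fitted (10.2%), 4 with DESeq2 (7.89%) and 10 with limma-voom (11.6%). In TSC against CTC it was 0, and 6, 2 and 3 with no filter, DESeq2 and limma-voom (3.17%, 2.74% and 3.09% of all genes). Leaving out each library gave 0 to 4, 0 to 7 and 0 to 6 calls in the 3 comparisons. In CTC against PC it was 7 without TSC replicate 1 or 2 (11.1% and 7.45% of all genes) and 0 without TSC replicate 3, any PC library or either CTC library, and in TSC against CTC it was 6 without TSC replicate 1. Without TSC replicate 1, 4.91% of all genes were called in TSC against CTC. The cause of these changes in the number called was not tested. A lone CTC library is assumed to vary like the other groups.

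Other replication genes called in CTC against PC numbered 0, and 2 with no filter, 2 with only the 2 groups, 1 with DESeq2 and 2 with limma-voom. Other mitosis genes called numbered 2 in CTC against PC, and 4, 10, 4 and 7 under the same settings. Under those settings 6.68%, 10.2%, 7.89% and 11.6% of all genes were called. In TSC against PC other mitosis genes called numbered 0, and 2 with limma-voom (3.88% of all genes). In TSC against CTC they numbered 0, and 4 with no filter (3.17%), 1 with DESeq2 (2.74%) and 3 with limma-voom (3.09%). Regulators called numbered 0 in each comparison. With no filter, DESeq2 and limma-voom they numbered 2, 1 and 3 in TSC against PC (1.54%, 1.34% and 3.88% of all genes). In CTC against PC they numbered 3, 3 and 4 (6.68%, 7.89% and 11.6%), and 4 with only the 2 groups (10.2%). In TSC against CTC they numbered 2, 1 and 2 (3.17%, 2.74% and 3.09%). With a library left out, other replication genes gave 0 to 2 calls in CTC against PC and 0 to 1 in TSC against CTC. Other mitosis genes gave 0 to 9 in both, and regulators 0 to 2, 0 to 4 and 0 to 2. In CTC against PC and TSC against CTC the upper ends were reached without TSC replicate 1 (11.1% and 4.91% of all genes called). For regulators in TSC against PC the upper end was reached without TSC replicate 2 (1.08%).

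The G2/M median ranged from −0.045 to 0.32 in TSC against PC and from −0.55 to −0.20 in TSC against CTC with a library left out. The log2 ratio of summed CPM, TSC minus PC, was 0.31, and 0.11 without MKI67, TOP2A and CENPF and 0.084 over members shorter than the median. CTC minus PC was −0.17, and −0.50 without those 3 genes, −0.43 over shorter members, −0.42 without MKI67 and −0.42 by the mean of log2 CPM.

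Whether the replicate numbers pair the samples is not known. Deviations of same-numbered TSC and PC libraries from their group means correlated at 0.033, −0.134 and 0.094. TSC replicate 1 correlated best with PC replicate 2 (0.167). Deviations from a mean of so few libraries depend on each other, so these correlations cannot decide on pairing. With the replicate block, 0 members were called in CTC against PC (ASPM adjusted p = 0.0669) and 1 other mitosis gene.

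Depth limits CTC replicate 1 most, where 3 counts equal 2.99 CPM.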
